A study of Homo sapiens with 9 samples.

Results

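The report concerns 9 long non-coding RNAs (lncRNAs) of epithelial cells, MALAT1, NEAT1, H19, MIR31HG, MIR205HG, HOTAIR, HOTAIRM1, GAS5 and SNHG1. They were chosen by symbol from the 60199 symbols of the count table, under the condition that at least 3 libraries held 10 or more counts. All 9 met it, and all 9 were among the 15717 genes tested. The lowest count of any of them in any library was 17, for HOTAIR.

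The samples were 9 libraries of poly-A RNA from MCF10A, a non-malignant human mammary epithelial line that lacks CDKN2A. MCF10A-CT (CT) was the parental line, not transformed and kept without added cytokines. MC26 was raised from the unsorted line, and M1B26 from cells that had first been sorted for BMPR1B, a receptor of bone morphogenetic proteins. Both had been transformed by prolonged exposure to BMP2 and IL6, which also stayed in their medium. M1B26 was grown up from 3 soft-agar clones, so it passed through a cloning step as well as a sort. All lines shared the MCF10A medium with serum, insulin, hydrocortisone, cholera toxin and EGF. Each line had 3 libraries, so n = 3 in every group, and the study's text does not say how the 3 were raised. Sorting, cloning and cytokine exposure cannot be told apart in M1B26.

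LncRNAs are transcripts that do not encode a long protein and act as RNA, or through the act of their transcription, or as the precursor of smaller RNAs. MALAT1 and NEAT1 stay in the nucleus, in speckles and paraspeckles. H19, MIR31HG and MIR205HG hold microRNA genes, HOTAIR and HOTAIRM1 lie in the HOXC and HOXA clusters, and GAS5 and SNHG1 carry small nucleolar RNAs (snoRNAs) in their introns.

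Total counts ran from 21425118 to 80076597 per library, and the depth limits only the weakest of these RNAs, HOTAIR and MIR31HG. Levels are given in CPM, counts per 1000000 counts of the library after TMM scaling, and differences as log2 fold changes with their standard error (SE) from edgeR's quasi-likelihood fit over all genes. A gene was called higher or lower at a Benjamini-Hochberg adjusted p under 0.05, a 2-sided test. A summed list of basal epithelial markers, which also holds the general epithelial genes CDH1 and EPCAM, was measured. It reached 7400 to 9160 CPM in CT, 9250 to 11700 in MC26 and 7560 to 7890 in M1B26. Of 8 leukocyte markers only CD14 and CD68 had enough counts for a test, and the other 6 had at most 6 counts in any library. The summed leukocyte list stood at 14.9 to 20 CPM in CT, 34.5 to 36.8 in MC26 and 56.9 to 79.0 in M1B26, and its part in the results was not tested. In these bulk libraries, fewer cells with an RNA and less of it per cell cannot be told apart.

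Per kilobase of annotated exon, the levels spanned a wide range. In CT the order ran from GAS5, at 43.2 ± 3.11 CPM per kb (SD, n = 3), through MIR205HG at 25.2 ± 3.79, SNHG1 at 19.3 ± 1.39 and H19 at 18.1 ± 3.15. It continued with NEAT1 at 6.07 ± 0.778, HOTAIRM1 at 4.93 ± 0.376 and MALAT1 at 4.2 ± 0.763, and ended with HOTAIR at 0.272 ± 0.0586 and MIR31HG at 0.120 ± 0.00885. The libraries of SNHG1 and H19 overlapped, as did those of NEAT1 with HOTAIRM1 and of HOTAIRM1 with MALAT1. In both transformed lines MIR205HG stood first, at 98.2 ± 14.4 CPM per kb in MC26 and 119 ± 15.6 in M1B26. H19 stood at 2.10 ± 0.664 in MC26, below MALAT1 and HOTAIRM1 on that scale, and at 6.5 ± 0.359 in M1B26. The length joins the exons of all annotated isoforms, 16.6 kb for MIR31HG and 22.8 kb for NEAT1, so the order depends on the annotation. By CPM alone in CT, NEAT1 at 138 ± 17.7 stood above MIR205HG at 89.1 ± 13.4. MIR31HG, at 1.99 ± 0.147 CPM, then stood above HOTAIR at 0.846 ± 0.182.

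Of the 9 lncRNAs, 6 were called in MC26 against CT, where edgeR called 38.7% of all genes tested. NEAT1, MIR205HG and SNHG1 were higher (18.8% of all genes were) and H19, MIR31HG and HOTAIRM1 were lower (19.9%). In M1B26 against CT 6 were called, beside 48.9% of all genes, with NEAT1, MIR31HG, MIR205HG, GAS5 and SNHG1 higher (25.2%) and H19 lower (23.7%). In M1B26 against MC26 the 4 called, H19, MIR31HG, HOTAIRM1 and GAS5, were all higher in M1B26, beside 39.5% of all genes called, 21.2% higher and 18.4% lower. MALAT1 and HOTAIR were called in none of the 3 comparisons. The 709 annotated lncRNAs tested were called at 35.8%, 39.4% and 28.2% in the same order, against 41.9%, 52.9% and 43.3% of 12729 protein-coding genes. The comparisons share libraries, so their calls are not independent of each other.

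**Figure D1:**
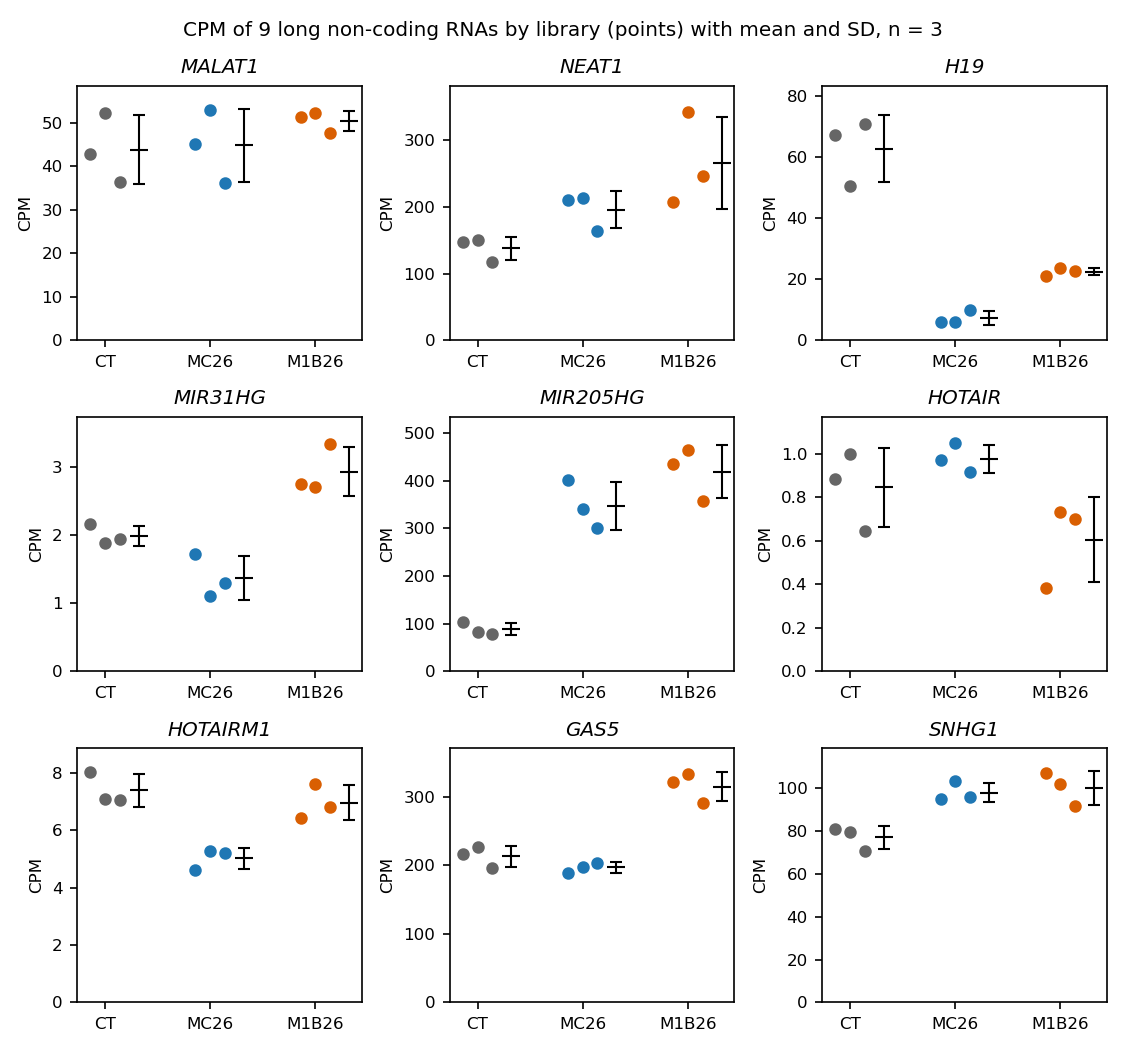
CPM of each of the 9 lncRNAs (vertical axis, from 0) in the 3 libraries of CT, MC26 and M1B26 (points), with the mean and SD (black bars, n = 3). The H19 libraries of MC26, at 5.92 to 9.91 CPM, lie far below those of CT, and the MIR205HG libraries of both transformed lines lie above every CT library.

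**Figure D2:**
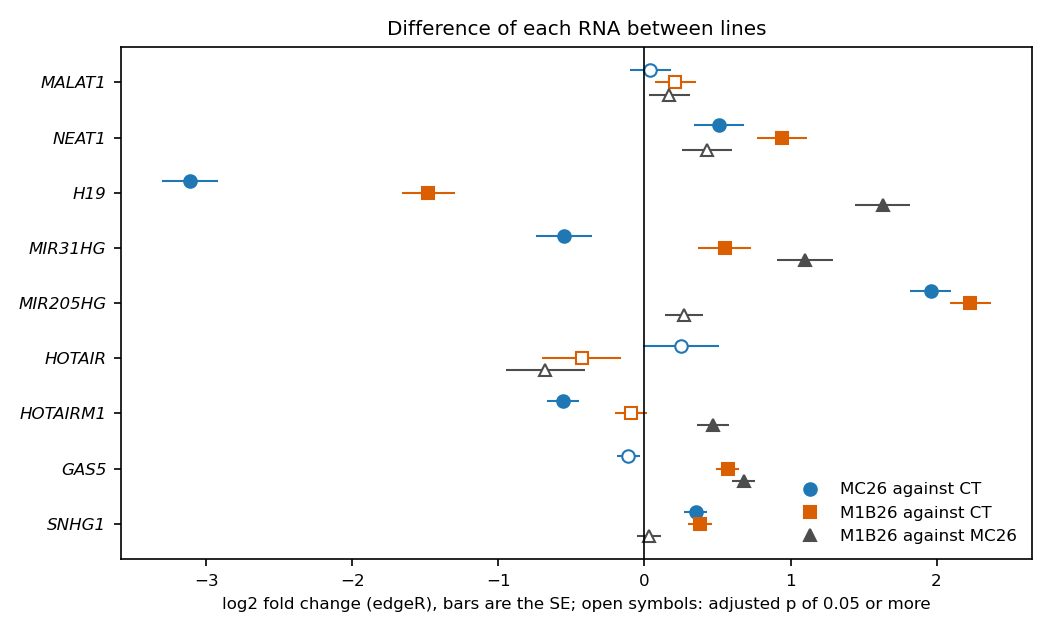
Log2 fold change of each lncRNA in the 3 comparisons (horizontal axis), with the SE as bars. Filled symbols have an adjusted p under 0.05 in edgeR's quasi-likelihood test and open symbols do not. H19 at -3.11 and MIR205HG at 1.96 and 2.23 lie farthest from 0 on either side.

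NEAT1 builds paraspeckles, nuclear bodies that hold RNA-binding proteins and edited RNAs, and MALAT1 is an abundant RNA of the nuclear speckles where splicing factors gather. They are neighbours on chromosome 11, NEAT1 at chr11:65422774-65445540 and MALAT1 at chr11:65497640-65508073, both on the plus strand (GRCh38, GENCODE v44). NEAT1 stood at 147, 150 and 118 CPM in CT, at 211, 214 and 164 in MC26 and at 207, 342 and 247 in M1B26. Every library of the transformed lines lay above every CT library, whereas MC26 and M1B26 overlapped, and the second M1B26 library was the highest of all. NEAT1 was 1.42-fold higher in MC26 than in CT (log2 0.51 ± 0.17 SE, edgeR adjusted p = 0.0362) and 1.92-fold higher in M1B26 (log2 0.94 ± 0.17 SE, edgeR adjusted p = 0.00107). The first of these calls was lost with total counts in place of TMM factors (edgeR adjusted p = 0.0673) and without any one of the CT libraries 1 and 3 or the MC26 libraries 1 and 2 (0.0617 to 0.113). M1B26 exceeded MC26 by 0.43 ± 0.17 SE on the log2 scale, which did not pass (edgeR adjusted p = 0.0645) but did in DESeq2 (adjusted p = 0.0351).

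MALAT1 stood at 42.8, 52.2 and 36.4 CPM in CT, at 45.2, 53.0 and 36.1 in MC26 and at 51.3, 52.3 and 47.7 in M1B26. The lines overlapped throughout, and the log2 differences from CT were 0.04 ± 0.14 SE in MC26 and 0.21 ± 0.14 SE in M1B26 (edgeR adjusted p = 0.857 and 0.248). The antisense RNA TALAM1, not analysed here, covers 8121 of the 10434 exonic bases of MALAT1. Whether counting used strand is not stated, so reads of the pair cannot be told apart. MALAT1 and the long form of NEAT1 end in a triple helix in place of a poly-A tail, and the libraries were made from poly-A RNA. Of 6 tested non-coding RNAs that lack such a tail, 2 were higher and none lower in MC26 against CT (a median of -0.35), none higher and 1 lower in M1B26 against CT and 1 higher and 2 lower in M1B26 against MC26. Called shares were 33.3%, 16.7% and 50%, beside 38.7%, 48.9% and 39.5% of all genes. Their summed level was 52.7 to 65.0 CPM in CT, 84.6 to 142 in MC26 and 33.7 to 49.2 in M1B26, with RN7SL2, the RNA of the signal recognition particle, 1.11 ± 0.18 SE higher in MC26 than in CT on the log2 scale (edgeR adjusted p = 0.000782). Replication-dependent histone mRNAs, which end in a stem-loop instead of the tail, were lower for 5 of 6 genes in MC26 against CT and 3 of 6 in M1B26 against CT (medians of -0.76 and -0.56), and their summed level was 38.7 to 43.7 CPM in CT, 19.8 to 25.8 in MC26 and 31.1 to 34.5 in M1B26. Of these 6 genes 83.3% and 50% were lower, beside 19.9% and 23.7% of all genes. The part of these RNAs in the values of NEAT1 and MALAT1 was not tested.

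Of 17 paraspeckle proteins 5 rose and none fell in MC26 against CT, 1 rose and 4 fell in M1B26 against CT, and none rose and 5 fell in M1B26 against MC26, which is 29.4% called in each comparison and below the share of all genes. The RNA-binding protein EWSR1 rose by 0.43 on the log2 scale in MC26 against CT and had less RNA in M1B26 than in MC26 (-0.34). HNRNPR, a splicing regulator, was lower in M1B26 than in CT (-0.33). RBM3, a cold-induced RNA-binding protein, was higher in both lines (0.37 and 0.23), the latter call being lost in 5 alternatives. The list's median difference was 0.05, -0.07 and -0.19 in the 3 comparisons, beside 0.00 for all genes. Of 19 nuclear speckle proteins 4 rose and 1 fell in MC26 against CT and 4 rose and 6 fell in M1B26 against CT, or 26.3% and 52.6% called beside 38.7% and 48.9% of all genes. SRRM2, which scaffolds the speckle, was higher in MC26 (0.27) and lower in M1B26 (-0.38) than in CT. The first of these calls was lost in 3 alternatives.

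Genes beside NEAT1 and MALAT1 did not all follow NEAT1. Of 12 neighbours tested on the same stretch, 6 were higher and 1 lower in MC26 against CT, and 1 was higher and 3 lower in M1B26 against CT. The called share was 58.3% and 33.3%, beside 38.7% and 48.9% of all genes. FRMD8, whose product stabilises the iRhom sheddase complex and which lies next to NEAT1, was higher in MC26 (0.48) and at 0.24 in M1B26, where it did not pass. LTBP3, which binds latent TGF-beta, was lower in both (-1.15 and -1.58), and so was the mitochondrial carrier SLC25A45 in M1B26 (-1.37).

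H19 is an imprinted RNA that is read from the maternal copy, is abundant in the embryo and is the precursor of miR-675. It lies at chr11:1995166-2004552 on the minus strand. H19 stood at 67.1, 50.4 and 70.8 CPM in CT, at 5.92, 5.94 and 9.91 in MC26 and at 21.1, 23.6 and 22.8 in M1B26. The 3 lines did not overlap, with M1B26 between the others. H19 fell 8.66-fold in MC26 against CT (log2 -3.11 ± 0.19 SE, edgeR adjusted p = 1.25e-06) and 2.80-fold in M1B26 (log2 -1.48 ± 0.18 SE, edgeR adjusted p = 6.01e-05). M1B26 exceeded MC26 3.09-fold (log2 1.63 ± 0.19 SE, edgeR adjusted p = 0.000103). All 3 calls held at 0.05 in each of the 16 alternative fits.

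The genes around H19 on 11p15.5 include a second imprinted domain. Of 10 neighbours tested, 1 was higher and 6 lower in MC26 against CT, with a median of -0.77, and 2 were higher and 5 lower in M1B26 against CT, with a median of -0.75. In each comparison 70% were called, beside 38.7% and 48.9% of all genes. IGF2, the growth factor that shares its enhancers with H19, was near 0, with 0 to 4 counts in any library. MRPL23, a mitochondrial ribosomal protein on the other side of H19, stood at 40.4 to 53.8 CPM in CT, 46.5 to 51.8 in MC26 and 56.0 to 64.3 in M1B26. CDKN1C, an imprinted inhibitor of cyclin-dependent kinases, stood at 28.0, 22.3 and 32.3 CPM in CT, at 2.26, 6.43 and 6.47 in MC26 and at 1.65, 3.34 and 5.91 in M1B26. It was lower than CT in every library of both lines (log2 -2.45 ± 0.41 SE and -2.91 ± 0.42 SE, edgeR adjusted p = 0.000887 and 0.000216), and unlike H19 it was not called between the transformed lines (-0.46, edgeR adjusted p = 0.422). KCNQ1, a potassium channel gene of the same domain, had 33, 11 and 46 counts in CT and 0 to 4 in every other library.

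Other genes of the imprinted network to which H19 belongs went in both directions. Of 8 tested, 2 were higher and 4 lower in MC26 against CT and 2 were higher and 3 lower in M1B26 against CT. Called in all were 75% and 62.5%, beside 38.7% and 48.9% of all genes. PEG10, a retrotransposon-derived gene, was lower in both (-0.98 and -0.88). MEST, a paternally expressed gene, was lower in MC26 (-0.34) and higher in M1B26 (0.41), and IGF2R, the receptor that clears IGF2, was lower in M1B26 (-0.73). H19 RNA also has binding sites for let-7, and of 11 let-7 targets tested 3 were higher and 1 lower in MC26 against CT and 3 higher and 2 lower in M1B26. This was 36.4% and 45.5% called, below the 38.7% and 48.9% of all genes. HMGA2, a chromatin protein of embryonic cells, was higher in both (1.28 and 1.35) and CCND2, a cyclin of the G1 phase, by 1.70 and 3.38.

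**Figure D3:**
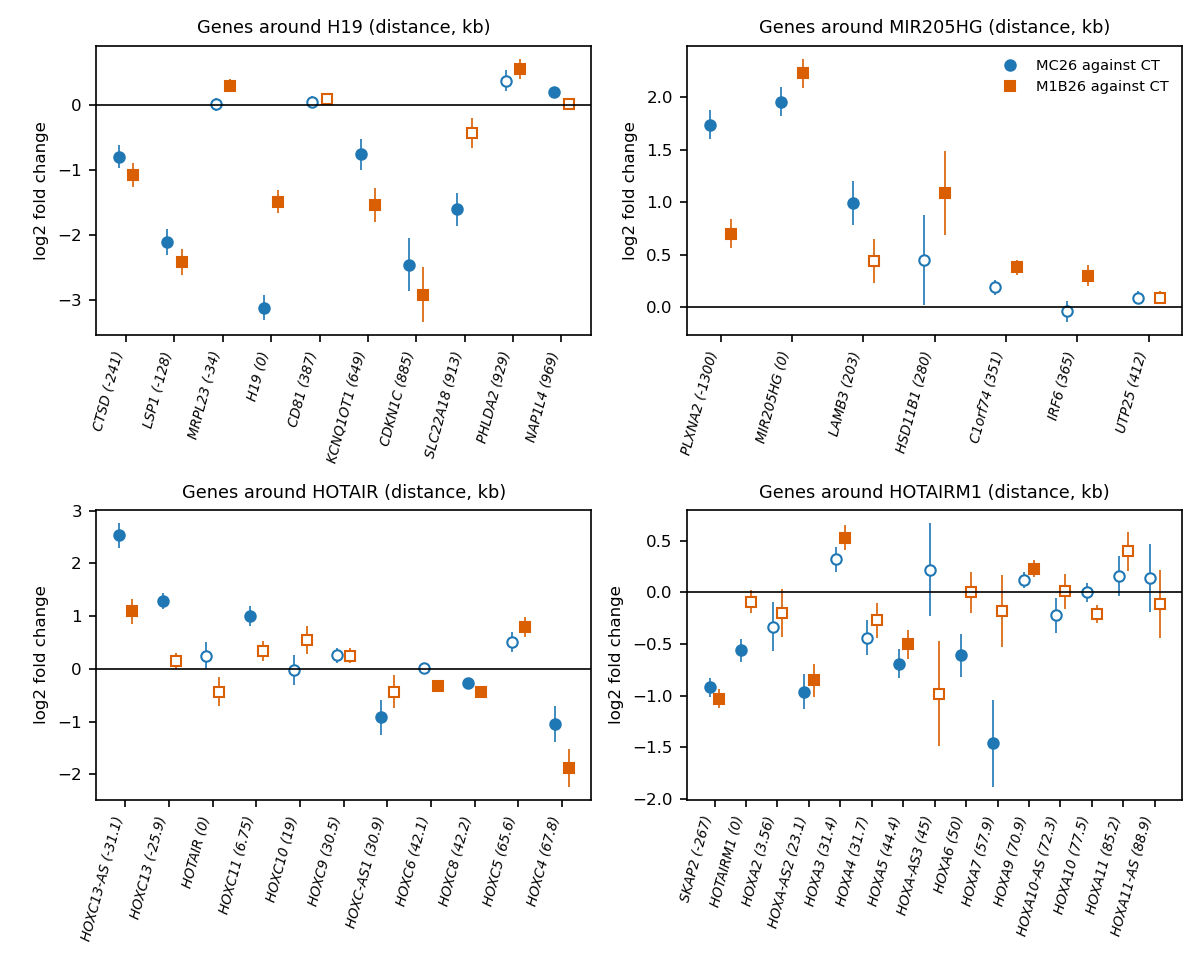
Log2 fold changes (vertical axis, SE as bars) of tested genes around H19, MIR205HG, HOTAIR and HOTAIRM1 in MC26 and M1B26 against CT, with genes in order of position at equal spacing and their distance in kb in brackets. Open symbols did not pass in edgeR, and KCNQ1, near 0 counts in both transformed lines, is left out. H19 at -3.11 and CDKN1C at -2.45 in MC26 lie far below 0, and MIR205HG is the highest of its panel.

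H19, MIR31HG and MIR205HG are host genes of microRNAs, short RNAs that pair through their seed, bases 2 to 8, with messenger RNAs and lower them. The main mature products, from RefSeq on GRCh38.p14, are printed 5′ to 3′ with the seed in capitals to show that the hosts carry unrelated seeds. They lie at chr11:1996800-1996822, chr9:21512158-21512178 and chr1:209432166-209432187. MIR675 lies in H19 exonic sequence, MIR31 in MIR31HG introns and MIR205 partly in MIR205HG exons.
miR-675-5p: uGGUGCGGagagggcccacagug
miR-31-5p: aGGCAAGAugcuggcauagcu
miR-205-5p: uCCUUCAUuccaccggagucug
The libraries did not measure mature microRNAs. The symbols MIR675 and MIR31 had 0 counts in all libraries and MIR205 had 1 to 11.

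MIR205HG, at chr1:209428817-209432848 on the plus strand, is the host of miR-205, a microRNA of basal and squamous epithelium. It stood at 104, 83.6 and 79.3 CPM in CT, at 401, 340 and 300 in MC26 and at 434, 465 and 358 in M1B26. Every library of the transformed lines was well above CT, and the transformed lines overlapped. MIR205HG rose 3.89-fold in MC26 (log2 1.96 ± 0.14 SE, edgeR adjusted p = 2.73e-06) and 4.70-fold in M1B26 (log2 2.23 ± 0.14 SE, edgeR adjusted p = 8.75e-07). The difference between M1B26 and MC26 was 0.27 ± 0.13 SE and did not pass (edgeR adjusted p = 0.131), though it did with no filter on low counts (0.0231) in edgeR.

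TP63, the transcription factor that defines basal epithelial cells, stood at 36, 30.5 and 29.3 CPM in CT, at 76.9, 78.7 and 78.6 in MC26 and at 81.4, 73.8 and 81.7 in M1B26. It rose by 1.29 ± 0.08 SE and 1.31 ± 0.08 SE on the log2 scale (edgeR adjusted p = 1.54e-06 and 9.36e-07). Over the 9 libraries, which fall into 3 lines, log2 CPM of MIR205HG and TP63 correlated with r = 0.98. The list of 9 basal markers tested held TP63 and LAMB3, and also CDH1 and EPCAM, which are not particular to basal cells. Of the 9, 5 were higher and 2 lower in MC26 against CT, 3 higher and 2 lower in M1B26 against CT and 1 higher and 4 lower in M1B26 against MC26. Called shares were 77.8%, 55.6% and 55.6%, beside 38.7%, 48.9% and 39.5% of all genes. Of 5 luminal markers tested, 1 was higher and 3 lower in MC26 against CT and 1 higher and 2 lower in M1B26 against CT. In M1B26 against MC26 3 were higher and 1 lower, and the called shares were 80%, 60% and 80%. Among the neighbours of MIR205HG on 1q32, 6 were tested, of which 2 were higher in MC26 against CT and 4 in M1B26 against CT. None was lower, so 33.3% and 66.7% were called, beside 38.7% and 48.9% of all genes. LAMB3, a laminin subunit of the epithelial basement membrane, stood at 601, 529 and 640 CPM in CT and at 1600, 1200 and 726 in MC26 (0.99 ± 0.21 SE), and at 808, 801 and 802 in M1B26, where 0.44 did not pass. PLXNA2, a semaphorin receptor, was higher in MC26 than in CT (1.74) and, by less, in M1B26 (0.70). CAMK1G, the nearest listed gene downstream, had no counts.

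Of 10 genes listed as targets of miR-205 or the related miR-200 programme, 2 were higher and 6 lower in MC26 against CT and none higher and 7 lower in M1B26 against CT, with medians of -0.31 and -0.43. The called share was 80% and 70%, beside 38.7% and 48.9% of all genes. ERBB3, a receptor of the EGFR family, stood at 13.7, 11.9 and 13.2 CPM in CT, at 3.26, 3.97 and 5.36 in MC26 and at 5.07, 4.07 and 7.09 in M1B26. It fell in both lines without overlap (log2 -1.63 ± 0.21 SE and -1.25 ± 0.20 SE, edgeR adjusted p = 0.000164 and 0.000497). LRP1, an endocytic receptor, fell by 1.79 and 1.23 on the log2 scale. Of the repressors of E-cadherin, ZEB2 was lower in both lines (-0.86 and -1.50), whereas ZEB1 was higher in MC26 (0.45) and at -0.33 in M1B26, where it did not pass. The call of ZEB1 in MC26 was lost in 4 alternatives.

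The 7-base match to the miR-205-5p seed is ATGAAGG, and the 8-base match adds an A at its 3′ end, ATGAAGGA. Of the 10 listed genes 8 hold 1 such 7-base match in the 3′ UTR of their canonical transcript (GENCODE v44). The sites of the 3 named genes that hold one are printed 5′ to 3′ as RNA-sense DNA, with the 7-base match in capitals, from chr12:56102327-56102349, chr12:57212658-57212680 and chr10:31528067-31528089 on GRCh38, all on the plus strand.
ERBB3: ggcactcctggagatATGAAGGa
LRP1: tgtataaatgtaaaaATGAAGGa
ZEB1: aatatgtggtaacatATGAAGGa
Each is followed by A, so all 3 are 8-base matches, and the gene with the third of them, ZEB1, was higher in MC26. Among 12702 tested genes with an annotated 3′ UTR, 13% held the 7-base and 4.92% the 8-base match. The 625 genes with an 8-base match had median log2 differences of -0.11, -0.18 and -0.07 in the 3 comparisons (MC26 and M1B26 each against CT, then against each other), beside 0.02, 0.03 and 0.01 for the 11047 genes with no 7-base match.

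Genes with a match had longer 3′ UTRs, with a median of 3321 bases beside 1116, so they were also compared among genes with at least 2000 bases. There, 469 genes with the 8-base match had medians of -0.10, -0.19 and -0.11, beside -0.03, -0.07 and -0.05 for 3329 genes with none. In M1B26 against CT 45.8% of the former and 31.9% of the latter were called lower. For the match to the miR-31-5p seed, TCTTGCC with an A added, the same long genes gave -0.05, -0.12 and -0.08 (430 genes), beside -0.04, -0.09 and -0.05 for 3268 genes with none, and 39.8% and 33.7% were called lower in M1B26 against CT. A match in letters is not a site in use, and the genes still differed in UTR length (a median of 4122 beside 3228 bases for miR-205-5p), the part of which was not tested.

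**Figure D4:**
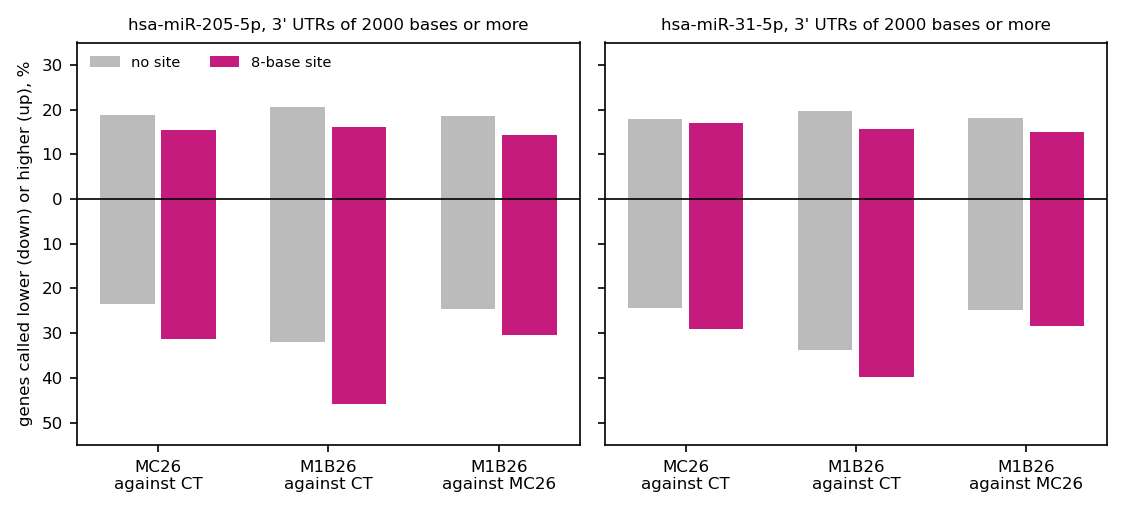
Share of genes called higher (bars up) or lower (bars down), in percent, among genes with a 3′ UTR of at least 2000 bases and either no 7-base seed match (grey) or an 8-base match (magenta), for miR-205-5p (left) and miR-31-5p (right) in the 3 comparisons. For miR-205-5p in M1B26 against CT, 45.8% of genes with the 8-base match and 31.9% of those without a match were called lower, and for miR-31-5p 39.8% and 33.7%.

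MIR31HG, at chr9:21380073-21559891 on the minus strand, hosts miR-31 and lies among the interferon genes of 9p21. It was weak, at 2.16, 1.88 and 1.94 CPM in CT, 1.72, 1.1 and 1.29 in MC26 and 2.75, 2.7 and 3.34 in M1B26, from 42 to 181 counts. The lines did not overlap, with MC26 lowest and M1B26 highest. M1B26 exceeded MC26 2.14-fold (log2 1.1 ± 0.19 SE, edgeR adjusted p = 0.0011), which held in each alternative fit. The differences from CT were -0.55 ± 0.19 SE in MC26 and 0.55 ± 0.18 SE in M1B26 (edgeR adjusted p = 0.0415 and 0.0254), and neither held throughout. The call in MC26 was lost in 10 of 16 alternatives, among them DESeq2 (adjusted p = 0.0646), and the call in M1B26 in 4, among them the fit without M1B26 library 3 (edgeR adjusted p = 0.0934).

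MIR31HG borders a stretch of 9p21 with few or no reads. KLHL9, an adaptor of a ubiquitin ligase on one side, stood at 17.1 to 20.1 CPM in all 9 libraries. IFNE, an epithelial interferon, lies within the span of MIR31HG without exonic overlap and had 1 to 10 counts. On the other side MTAP, an enzyme of methionine salvage, had 0 to 4 counts and CDKN2A and CDKN2B had none. Farther out, DMRTA1, a DM-domain gene, had 28, 9 and 49 counts in CT, 7, 1 and 1 in MC26 and 26, 33 and 53 in M1B26. DMRTA1 fell in MC26 against CT and was higher in M1B26 than in MC26 (edgeR adjusted p = 0.00325 and 0.00064). MLLT3, a subunit of the super elongation complex that lies on the side of KLHL9, stood at -0.53 and 0.47 on the log2 scale against CT, neither of which passed (edgeR adjusted p = 0.0541 and 0.0573), and was higher in M1B26 than in MC26 (edgeR adjusted p = 0.00236).

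HOTAIR, at chr12:53962308-53974956 on the minus strand, is transcribed antisense within the HOXC cluster and is known for its link to Polycomb repression and to breast tumours. It was weak in all lines, at 0.886, 1 and 0.647 CPM in CT, 0.970, 1.05 and 0.918 in MC26 and 0.383, 0.734 and 0.702 in M1B26, from 17 to 62 counts. CT overlapped both other lines, whereas every M1B26 library lay below every MC26 library. No difference passed. M1B26 stood at -0.68 ± 0.27 SE against MC26 (edgeR adjusted p = 0.0678), and the differences from CT were 0.25 ± 0.26 SE in MC26 and -0.43 ± 0.27 SE in M1B26 (edgeR adjusted p = 0.487 and 0.214).

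Of 10 neighbours of HOTAIR tested in the HOXC cluster, 3 were higher and 3 lower in MC26 against CT, 2 higher and 3 lower in M1B26 against CT and 4 lower in M1B26 against MC26. Called shares were 60%, 50% and 40%, beside 38.7%, 48.9% and 39.5% of all genes. HOXC11, which lies on the opposite strand within the span of HOTAIR without exonic overlap, stood at 2.92, 2.27 and 3.04 CPM in CT, 6.94, 5.60 and 4.31 in MC26 and 3.47, 3.95 and 3.20 in M1B26. It was higher in MC26 than in CT (1.01), and M1B26 was below MC26 (-0.67), a call lost without MC26 library 1 or M1B26 library 3 (edgeR adjusted p = 0.0603 and 0.054). HOXC13-AS, the antisense RNA of HOXC13, was higher in both lines (2.53 and 1.09). HOXC4 at the other end was lower in both (-1.04 and -1.87), from at most 43 counts, and its call in MC26 was lost in 6 alternatives. HOXC12, next to HOTAIR, had no counts, and none of 12 HOXD genes, the cluster at which HOTAIR was first described to act, had enough counts to test.

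HOTAIRM1, at chr7:27095647-27100265 on the plus strand, lies at one end of the HOXA cluster and is known as a myeloid and neural RNA. It stood at 8.03, 7.08 and 7.04 CPM in CT, at 4.60, 5.26 and 5.20 in MC26 and at 6.43, 7.62 and 6.81 in M1B26. Every MC26 library was below all others, and CT and M1B26 overlapped. HOTAIRM1 fell 1.47-fold in MC26 (log2 -0.56 ± 0.11 SE, edgeR adjusted p = 0.0029), stood at -0.09 ± 0.11 SE in M1B26 against CT (edgeR adjusted p = 0.529), and was 1.38-fold higher in M1B26 than in MC26 (log2 0.47 ± 0.11 SE, edgeR adjusted p = 0.00776). Both calls held at 0.05 in each alternative fit.

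HOXA2, which lies next to HOTAIRM1, was called in no comparison, at 1.01 to 2.16 CPM. Of 15 genes of the list tested, which includes SKAP2 beyond the cluster, none was higher and 5 lower in MC26 against CT, and 2 were higher and 3 lower in M1B26 against CT. In each comparison 33.3% were called, below the 38.7% and 48.9% of all genes. SKAP2, an adaptor of Src kinases, was lower in both (-0.92 and -1.03). H19 and HOTAIRM1 had their lowest levels in MC26, and over the 9 libraries their log2 CPM correlated with r = 0.89, a description of 3 lines rather than of 9 independent points.

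GAS5 and SNHG1 are snoRNA host genes. The snoRNAs, which guide the modification of ribosomal RNA, are cut from their introns, while the spliced host RNA is exported and destroyed by nonsense-mediated decay. GAS5 lies at chr1:173858559-173868882 and SNHG1 at chr11:62851978-62855953, both on the minus strand. GAS5 stood at 216, 227 and 196 CPM in CT, at 189, 198 and 204 in MC26 and at 321, 333 and 291 in M1B26. CT and MC26 overlapped, and every M1B26 library lay above both. GAS5 was 1.48-fold higher in M1B26 than in CT (log2 0.57 ± 0.08 SE, edgeR adjusted p = 0.000136) and 1.60-fold higher than in MC26 (log2 0.68 ± 0.08 SE, edgeR adjusted p = 7.84e-05), and MC26 stood at -0.11 ± 0.08 SE against CT (edgeR adjusted p = 0.256).

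SNHG1 stood at 80.7, 79.4 and 70.5 CPM in CT, at 94.8, 103 and 95.6 in MC26 and at 107, 102 and 91.5 in M1B26. Both transformed lines lay above CT and overlapped each other. SNHG1 rose 1.27-fold in MC26 (log2 0.35 ± 0.08 SE, edgeR adjusted p = 0.00566) and 1.30-fold in M1B26 (log2 0.38 ± 0.08 SE, edgeR adjusted p = 0.00243), and the lines differed by 0.03 ± 0.08 SE (edgeR adjusted p = 0.774). All calls of GAS5 and SNHG1 held at 0.05 in each alternative fit.

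Of the other 24 snoRNA host genes tested, 3 were higher and 5 lower in MC26 against CT, 13 higher and none lower in M1B26 against CT, and 14 higher and 1 lower in M1B26 against MC26. Called shares were 33.3%, 54.2% and 62.5%, beside 38.7%, 48.9% and 39.5% of all genes. The share called higher was 12.5%, 54.2% and 58.3%, beside 18.8%, 25.2% and 21.2%. With GAS5 and SNHG1 included, the median differences of the 26 genes were -0.12, 0.30 and 0.32, beside 0.00 for all genes. SNHG29, the host with the highest CPM in CT, was named after its values were seen. It stood at 580, 535 and 534 CPM in CT, at 469, 496 and 617 in MC26 and at 953, 919 and 927 in M1B26 (0.76 against CT and 0.82 against MC26). SNHG25, SNHG14, SNHG30 and SNHG19 were higher in M1B26 than in MC26 by 1.78, 1.40, 1.11 and 0.91 on the log2 scale. SNHG14, the long host of the imprinted 15q11 snoRNAs, was lower in MC26 than in CT (-0.42) and higher in M1B26 (0.98).

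Of the 26 genes, 5 lie on chromosome 17, SNHG16, SNHG20, SNHG25, SNHG29 and SNHG30, and all 5 were higher in M1B26 than in either other line. Genes of that chromosome were higher in M1B26 as a whole, with a median of 0.48 over 843 genes against either line. Of them 64.4% were called higher against CT and 67% against MC26. Of the 21 snoRNA hosts on other chromosomes, GAS5 and SNHG1 among them, 10 were higher and none lower in M1B26 against CT and 10 higher and 1 lower in M1B26 against MC26, with medians of 0.25 and 0.29. Called shares were 47.6% and 52.4%, beside 48.9% and 39.5% of all genes. In each, 47.6% were called higher, beside 25.2% and 21.2%.

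**Figure D5:**
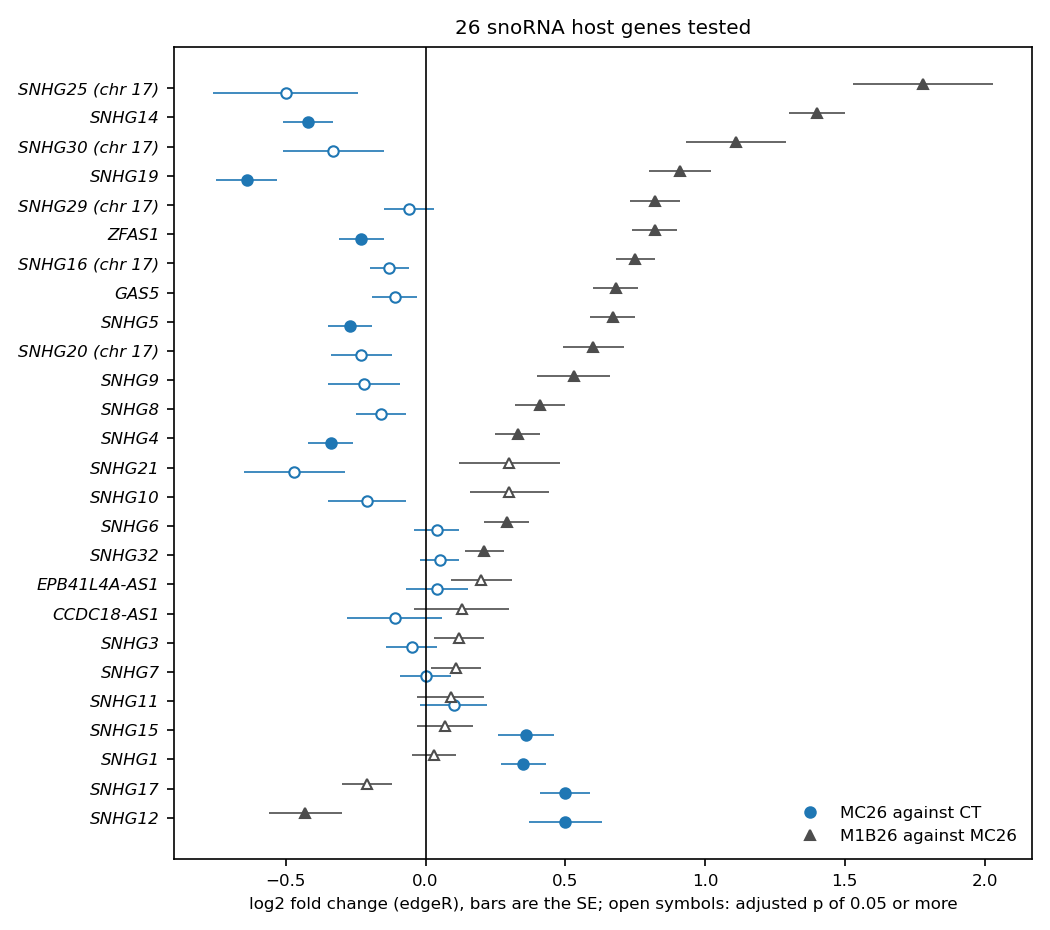
Log2 fold changes (horizontal axis, SE as bars) of the 26 snoRNA host genes tested, in MC26 against CT and in M1B26 against MC26, ordered by the latter, with the 5 genes on chromosome 17 marked. Open symbols did not pass in edgeR. GAS5 lies at 0.68 among the genes higher in M1B26, and SNHG1, at 0.03, lies near the bottom of the order with SNHG17 and SNHG12.

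Many snoRNA hosts start with a C followed by a run of pyrimidines (C or T), the 5′ terminal oligopyrimidine (TOP) tract by which the translation of ribosomal protein and translation factor mRNAs is controlled. A C with at least 4 pyrimidines after it was sought at the RefSeq starts used here (GRCh38.p14). It was found for 7 of the 23 snoRNA hosts with an entry (30.4%), beside 4.07% of all 35116 starts. The stretches from 10 bases before to 20 bases after the start are printed 5′ to 3′ for the pair of members and for hosts with and without the tract, with the tract in capitals. They lie at chr1:173869026-173869055, chr11:62855866-62855895, chr6:85678714-85678743, chr20:49278632-49278661, chr16:2155339-2155368 and chr17:16438977-16439006, on the minus strand except for ZFAS1 and SNHG29.
GAS5: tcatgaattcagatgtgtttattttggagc
SNHG1: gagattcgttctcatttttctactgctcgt
SNHG5: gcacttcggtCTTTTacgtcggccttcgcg
ZFAS1: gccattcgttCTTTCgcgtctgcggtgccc
SNHG19: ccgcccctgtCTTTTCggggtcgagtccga
SNHG29: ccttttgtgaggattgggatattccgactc
The RefSeq start of GAS5 lies upstream of its GENCODE gene, and the run at the SNHG1 start is broken by an A, so neither counts as having the tract at this position. Of the 6 tested hosts with the tract, 5 were higher and 1 lower in M1B26 against MC26, with a median of 0.50. Of the 16 without it, GAS5 and SNHG1 among them, 7 were higher and none lower, with a median of 0.30. This split depends on the listed start and on an unbroken run, so the 16 may include hosts with a tract at another start. In M1B26 against CT 3 of the 6 and 9 of the 16 were higher and none lower, with medians of 0.26 and 0.27. Of all genes, 21.2% were called higher in M1B26 against MC26 and 25.2% in M1B26 against CT.

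A further list held 14 known TOP mRNAs, of translation factors and related proteins. Only 10 of these genes had an entry among the RefSeq starts used here, with 12 starts in all, and 9 of those starts held the tract (75%). Of the 14 genes, none was higher and 1 was lower in MC26 against CT, 8 were higher and none lower in M1B26 against CT and 9 were higher and none lower in M1B26 against MC26, with medians of -0.01, 0.26 and 0.29. Called shares were 7.14%, 57.1% and 64.3%, beside 38.7%, 48.9% and 39.5% of all genes. TPT1, a small and abundant TOP mRNA, stood at 2120, 2150 and 1980 CPM in CT, at 1940, 2020 and 2230 in MC26 and at 3480, 3760 and 3190 in M1B26 (0.74 against CT). The elongation factors EEF1B2 and EEF1A1 and the initiation factor EIF3F were higher in M1B26 than in CT by 0.58, 0.29 and 0.49 on the log2 scale.

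Of 14 factors of nonsense-mediated decay, 5 were higher and none lower in MC26 against CT, 4 higher and 7 lower in M1B26 against CT and 3 higher and 8 lower in M1B26 against MC26. The called share was 35.7%, 78.6% and 78.6%, beside 38.7%, 48.9% and 39.5% of all genes. Median differences of the list were 0.13, -0.22 and -0.25. UPF2, a core factor, stood at 50.6, 61.9 and 52.3 CPM in CT, at 57.0, 61.5 and 53.9 in MC26 and at 40.1, 40.6 and 35.7 in M1B26 (-0.50 against CT and -0.57 against MC26). SMG9, a subunit of the kinase complex that phosphorylates UPF1, was higher in MC26 (0.29) and lower in M1B26 (-0.36) than in CT. The call of SMG9 in MC26 was lost in 6 alternatives. SMG8, its partner, and EIF4A3, of the exon junction complex, were higher in M1B26 than in CT (0.59 and 0.73), and both lie on chromosome 17. Of the 10 factors on other chromosomes, 1 was higher and 7 lower in M1B26 against CT and none higher and 8 lower in M1B26 against MC26. In each, 80% were called, beside 48.9% and 39.5% of all genes.

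The genes most like each lncRNA were sought among 10636 others (10637 for MIR31HG and HOTAIR) with a mean of at least 5 CPM, by Pearson's r of log2 CPM over the 9 libraries, which share 3 lines. For GAS5 they were AMZ2P1, RPS3A, a protein of the small ribosomal subunit, and ATP5PB, a subunit of ATP synthase (r = 0.995, 0.993 and 0.991). For MIR205HG they were AL049629.2, THSD1 and PUDP (r = 0.994, 0.994 and 0.992), and for H19 P4HTM, TOB1 and PDLIM2 (r = 0.993, 0.993 and 0.991). At an r of at least 0.95, GAS5 had 182 such genes, MIR205HG 164 and H19 107, whereas NEAT1 and SNHG1 had 4, MALAT1 1 and HOTAIR none. SERPINB6, an intracellular protease inhibitor, was nearest to NEAT1 (r = 0.977), MYO1D, a myosin, to MIR31HG (r = 0.980) and BPHL, a hydrolase, to HOTAIRM1 (r = 0.985).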

How the data were processed

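The 9 poly-A libraries of MCF10A-derived cells were sequenced in paired-end mode. The authors deposited raw counts per gene symbol, with reads aligned to GRCh38 by STAR 2.7.3a. The study's methods name Salmon 1.1.0, run on GENCODE v33 protein-coding genes, for quantification. The deposited counts are whole numbers and include all 9 lncRNAs, so that step does not describe them fully. The program behind them, its strandedness and its handling of multi-mapped reads are not given in the sources used here. Genes were tested in R 4.3.3 with edgeR 4.0.16 (filterByExpr with a minimum count of 10, TMM factors of 0.9685 to 1.069, quasi-likelihood F test on all 9 libraries, Benjamini-Hochberg over 15717 genes). The SE was the absolute log2 fold change divided by the square root of F. The biological coefficient of variation was 10.4%, and p-values measure the spread between libraries of one line. In data simulated for MC26 against CT over 15409 genes, 88.0% of genes changed by a log2 value of 1 and 83.7% of those changed by -1 were recovered. Only 50 and 49 genes were changed by these values, whereas 38.7% of genes were called in the measured data. The recovery therefore describes the simulated setting and not the power of the reported test. Symbols were matched to GENCODE v44 on GRCh38 (36923 symbols), a later release than the v33 of the study. The 9 lncRNAs and the companion lists were chosen with earlier results of these data known. From each list up to 4 genes were named by rule, those next to a lncRNA first and then the called genes with the largest absolute log2 fold change. Further snoRNA hosts (SNHG5, SNHG16, SNHG20, SNHG29 and ZFAS1, and SNHG12 and SNHG17 in a caption) and genes of 9p21 (MTAP, CDKN2A, CDKN2B and MLLT3) were named after their values were seen. As alternatives the counts were fitted with DESeq2 1.42.0, with RLE factors or total counts, unfiltered or above a mean of 50 counts, on the 6 libraries of a comparison alone, with a replicate block and without each library in turn, and a threshold of 0.01 was tried. A fold against a line at or under 3 counts per library was set against that floor. The floor was a fixed choice with no estimate of error behind it. Reads without molecular identifiers are also not independent molecules.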

Additional observations from a re-analysis of the deposited data

Results flagged for a closer look

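For 4 lncRNAs the change against CT differed between the transformed lines when M1B26 was tested against MC26 directly with edgeR's quasi-likelihood test. The difference was 1.63 on the log2 scale for H19 (M1B26 higher in 3 of 3 libraries), which was below CT in both lines. It was 1.1 for MIR31HG, which lay below CT in MC26 and above CT in M1B26, and 0.47 for HOTAIRM1, which was called lower than CT in MC26 and was not called in M1B26. It was 0.68 for GAS5, which was higher than CT in M1B26. In each of these the M1B26 and MC26 libraries did not overlap. The edgeR adjusted p-values were 0.000103, 0.0011, 0.00776 and 7.84e-05, and all 4 stayed past the threshold at 0.05 in each of the 16 alternative fits. Groups of 3 libraries were too small for a test of single outlying samples.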

How the results depend on the processing

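Of the 429 values of the 9 lncRNAs under alternatives, 400 kept their direction and their side of the threshold, 19 fell below it, 6 passed it anew and 4 changed sign, none of which was a called value. Those 4 were MALAT1 in MC26 against CT (-0.04 with total counts, and -0.09 to 0.18 over the fits that left out 1 library) and SNHG1 in M1B26 against MC26 (-0.02 to 0.09). Among 2288 values of the named companion genes 2179 kept both and 11 changed sign. With total counts UPF2 in MC26 against CT went to -0.01, EWSR1 in M1B26 against CT to 0.00 and TP63 in M1B26 against MC26 to 0.00. Over the fits that left out 1 library, MC26 against CT ran from -0.19 to 0.02 for SNHG29 and from -0.07 to 0.04 for TPT1, and M1B26 against MC26 from -0.03 to 0.13 for HMGA2 and -0.01 to 0.06 for TP63. In MC26 against CT the calls of MIR99AHG and MIR503HG, and in M1B26 against CT that of LINC00472, were lost without single libraries (adjusted p of up to 0.0568, 0.132 and 0.0529 in edgeR). Total counts also moved the median of all genes by -0.08, -0.09 and -0.02, and the share of calls that were higher from 48.5% to 35.8% in MC26 against CT and from 51.5% to 39.6% in M1B26 against CT. At an adjusted p under 0.01, 3698 genes in place of 6081 were called in MC26 against CT and 3685 in place of 6215 in M1B26 against MC26, as a stricter threshold must give. Without 1 library the number of lncRNAs called was 4 to 6 in MC26 against CT, 5 to 6 in M1B26 against CT and 4 to 5 in M1B26 against MC26.

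Libraries with the same number did not deviate together (correlations of -0.114 to 0.136, with 2 of 9 pairs over 0.1). Libraries with different numbers ran from -0.129 to 0.119. The values thus show no pairing by number, which does not settle whether libraries of one number were handled together. With the replicate number as a block, 6, 6 and 6 lncRNAs were called in place of 6, 6 and 4, the added calls being NEAT1 and MIR205HG in M1B26 against MC26 (adjusted p = 0.0305 and 0.0297 in edgeR), and 5879, 7513 and 6009 genes in all. Depth limits HOTAIR, with 17 to 62 counts, and MIR31HG, with 42 to 181.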

Other observations

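Of 20 other well-studied lncRNAs tested, 5 were higher and 4 lower in MC26 against CT, and 5 were higher and 6 lower in M1B26 against CT, or 45% and 55% called beside 38.7% and 48.9% of all genes. UCA1, an RNA of bladder and other carcinomas, had 0, 0 and 2 counts in CT, 772, 422 and 77 in MC26 and 144, 173 and 248 in M1B26. Against a floor of 3 counts per library in CT it was at least 152-fold higher in MC26 and at least 56.6-fold higher in M1B26. Without MC26 library 1 the former was at least 91.5-fold, a check added after seeing the data, and without MC26 library 3, the lowest, at least 215-fold. LINC01503, a squamous cell RNA, stood at 8.87, 6.60 and 8.10 CPM in CT and at 20.3, 20.9 and 26.1 in MC26 and 26.4, 24.9 and 20.9 in M1B26, above CT in every library. LINC-PINT, an RNA induced by p53, was lower in both lines (-1.18 and -0.79 on the log2 scale). BCYRN1, which derives from an Alu repeat and may share reads with other copies, rose in MC26 against CT (0.83) and stood lower in M1B26 than in MC26 (-1.22).

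Of 12 other lncRNAs that host microRNAs, 2 were higher and 3 lower in MC26 against CT, 3 higher and 2 lower in M1B26 against CT, and none higher and 1 lower in M1B26 against MC26. Called shares were 41.7%, 41.7% and 8.33%, beside 38.7%, 48.9% and 39.5% of all genes. MIR99AHG, the host of miR-99a and let-7c, was lower in MC26 (-1.71), LINC00472 was lower in both lines (-1.46 and -1.04) and MIR503HG was higher in MC26 (1.07), each at about 1 CPM or less in most libraries.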
